A study of Mus musculus with 12 samples.

Results

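Transcript levels in kidney cortex were compared among 3 diabetic mice that had received the same treatment, on the 3 arrays whose titles pair a diabetic animal with another diabetic animal, out of 12 arrays in the series. These animals, called diabetic 1, diabetic 2 and diabetic 3, had been given streptozotocin (STZ), which kills pancreatic beta cells and so ends insulin secretion. The other 9 arrays served as support: 3 pair animals of a second group, menopausal/diabetic, which had received VCD and STZ, and 6 pair an animal of that group with a diabetic one. VCD (vinylcyclohexene diepoxide) is toxic to primordial and primary ovarian follicles and is used to model menopause. All 6 animals had therefore had STZ, and RNA of each was taken from kidney cortex 6 weeks later. Strain, sex and age were not given in the labels used here.

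Most of the kidney cortex is proximal tubule, whose cells take back glucose, amino acids, phosphate and protein from the filtrate and draw much of their energy from the oxidation of fatty acids. Fatty acids that are not burnt are stored in lipid droplets coated by perilipins, and they also act as ligands of PPAR-alpha, a nuclear receptor that raises the genes of fatty acid transport and oxidation in mitochondria and peroxisomes. In diabetic kidneys these programmes, the defence against oxidants and the transport genes of the proximal tubule are all known to shift, so the spread among animals given the same treatment is the scale against which a group difference is read.

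On each array 1 animal was labelled with Alexa Fluor 546 and the other with Alexa Fluor 647, and a ratio is the log2 of the former over the latter, which puts the first-named animal over the second. Diabetic 1 met diabetic 2, diabetic 2 met diabetic 3 and diabetic 3 met diabetic 1, each once, so the 3 arrays close a loop in which every animal is seen on 2 arrays. For every gene a level was fitted for each animal, relative to the mean of the 3, together with a dye effect shared by all 12 arrays. The 6 between-group arrays gave a second set of levels of the same 3 animals from other hybridisations, and a fit with 1 level per animal over all 12 arrays combined the sets. Each animal is 1 mouse, arrays of an animal are repeats of it, and the error of every level below is that between arrays, given as SE. The tests therefore say whether these 3 kidneys differ beyond array error, and nothing about diabetic mice at large.

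The median signal over local background was 48.6 to 83.3 intensity units in the Alexa Fluor 546 channel and 44.9 to 71.1 in the 647 channel, 35.1% to 42.7% of the spots were detected, and the log ratios of the 2 spots of a clone correlated at 0.742 to 0.834 across clones. After the dimmest 25% of clones were left out, 9955 features were tested, of which 5869 carry a gene name and 4086 are unnamed clones. Markers of the labelled tissue were present: 7 of 8 proximal tubule markers measured were detected on all 3 arrays, and their median brightness lay at the 89.5th percentile of all clones. Of other tissues that a dissection can carry along, 6 adrenal, 4 red blood cell, 5 leukocyte, 2 liver, 1 fat and 1 skeletal muscle marker were measured. Their median levels in diabetic 3, the animal that stood apart below, ran from -0.07 to 0.13 on the log2 scale on the diabetic arrays. On the between-group arrays they ran from -0.19 for leukocytes to 0.39 for the fat marker. The highest adrenal marker was at 0.55 on the diabetic arrays, and the muscle marker was detected on none of them. Whether such tissue was carried along was not tested.

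One array goes against its label in part. The animal identifiers inside the scanner files match the titles on 11 of 12 arrays, and on the array titled diabetic 2 with diabetic 3 both dyes carry another identifier. Each array was set beside its own titled pair of animals alone, so which animals this array holds was not tested. Across the 9955 features, the ratios of that array correlated at 0.61 with the same difference as measured on the between-group arrays, while those of the array of diabetic 1 with diabetic 2 correlated at -0.02 and those of the array of diabetic 3 with diabetic 1 at -0.04. With the dye effect removed these correlations were 0.51, 0.18 and 0.04. Features share arrays, so the correlations are descriptions without a test, and for the calls made on 12 arrays the outcome without the array in question is given beside them.

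Most transcripts were alike in the 3 kidneys, and the largest departures involved diabetic 3. The median size of the fitted difference was 0.09 on the log2 scale between diabetic 1 and 2, 0.11 between diabetic 2 and 3 and 0.11 between diabetic 3 and 1. The 95th percentile was 0.41, 0.55 and 0.58 in that order. A difference of more than 2-fold was fitted for 17, 88 and 110 features, so that both pairs holding diabetic 3 had more of them than the pair without it. Between diabetic 2 and 3 the level was higher in diabetic 3 in 64 of the 88 features. On the between-group arrays the counts were 41, 219 and 142, again lowest for the pair without diabetic 3, but there diabetic 3 was the higher animal in 71 of the 219. The loop of the menopausal/diabetic animals had 4, 8 and 4. In the brighter part of the clones the counts were 9, 82 and 100, so most of the large differences between diabetic 3 and the others were in well-measured features. These counts were not tested against each other.

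**Figure D1:**
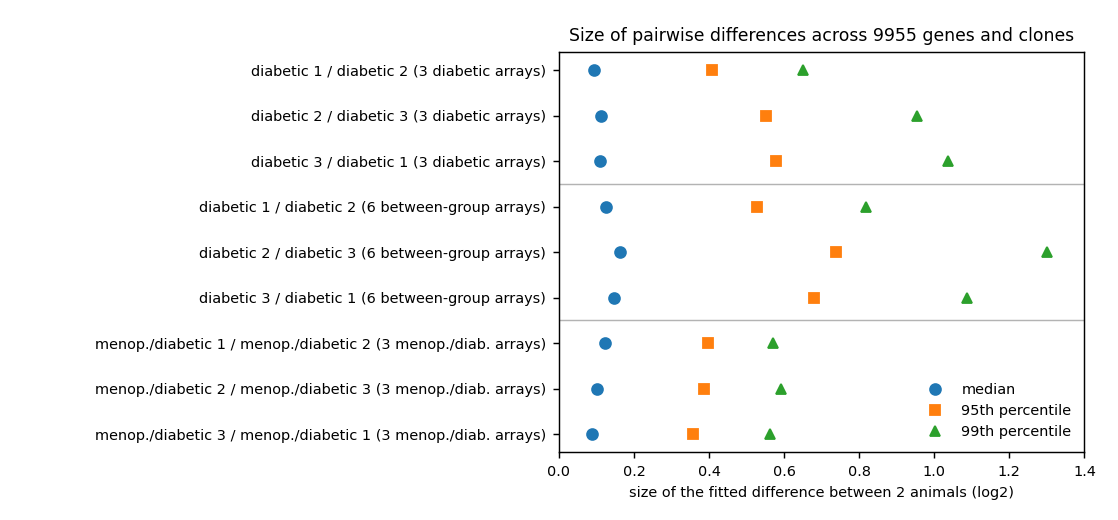
Size of the fitted log2 difference between 2 animals over 9955 genes and clones, as the median (circles), 95th percentile (squares) and 99th percentile (triangles); lines separate the loops of 3 diabetic, 6 between-group and 3 menopausal/diabetic arrays. The medians lie close together, while the 99th percentile is 0.65 for diabetic 1 with 2 and 0.95 and 1.04 for the pairs with diabetic 3.

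The misfit of the loop was not small beside the spread of the ratios. Once the dye effect is taken off, the 3 ratios round the loop should sum to 0. Across features the sum had an SD of 0.56, or 0.33 when divided by the square root of 3. The ratios of single arrays had an SD of 0.23 to 0.37. The dye effect is itself an estimate and its error enters the sum, so 0.33 overstates the error of 1 array. The median SE of a level was 0.08 from the 3 diabetic arrays, 0.11 from the between-group arrays and 0.06 from all 12. In limma's moderated F test of the 3 levels with Benjamini-Hochberg adjustment over 9955 features, 1 gene passed an adjusted p of 0.05 on the 3 diabetic arrays (0.01% of features tested), and 770 features (7.73%) had an unadjusted p under 0.05. By the same test the between-group arrays gave 0 calls and 652 features (6.55%) at the unadjusted threshold, with a smallest adjusted p of 0.212, and the menopausal/diabetic loop gave 0 calls and 327 features (3.28%). The fit over all 12 arrays called 146 features (1.47%), 108 of them named genes, and 1305 (13.1%) at the unadjusted threshold.

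Diabetic 3 was the animal farthest from the mean of the 3 in 496 of the 770 features at the unadjusted threshold, or 64.4%, against 39.2% of all features. In 340 of these it was high (3.42% of features tested) and in 156 low (1.57%). Diabetic 2 was farthest in 120 features as high (1.21%) and 59 as low (0.593%), and diabetic 1 in 41 (0.412%) and 54 (0.542%). Pair by pair, the moderated test called 0 features between diabetic 1 and 2, 3 between diabetic 2 and 3 (0.0301%) and 1 between diabetic 3 and 1 (0.01%). At the unadjusted threshold the counts were 358 (3.6%), 899 (9.03%) and 839 (8.43%). In the fit over all 12 arrays the counts called by limma were 0, 235 (2.36%) and 113 (1.14%). There diabetic 3 was farthest in 125 of the 146 features called, high in 86 (0.864%) and low in 39 (0.392%). Diabetic 2 was farthest as high in 11 (0.11%) and as low in 3 (0.0301%), and diabetic 1 as high in 2 (0.0201%) and as low in 5 (0.0502%).

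The levels repeated best where the evidence on the 3 arrays was strongest. Of the 24 features with the smallest p on the diabetic arrays, 21 had the same animal farthest in the same direction on the between-group arrays. In all 24 it was diabetic 3 on the diabetic arrays, and its sign was the same in 24 of 24. Of the 100 smallest p, 70 repeated animal and direction, against 23.7% of all features. Of the 770 features, 247 were also under the unadjusted threshold on the between-group arrays, which is 32.1% of the former and 37.9% of the latter set. The between-group arrays share the error estimate with the diabetic arrays, so these counts carry no test.

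The repeat leaned on the array of diabetic 2 with diabetic 3. Taking the 386 features at the unadjusted threshold on the between-group arrays in which diabetic 3 was farthest, its sign was kept by the single ratio in 353 (91.5%) on that array and in 218 (56.5%) on the array of diabetic 3 with diabetic 1. For all 4112 features with diabetic 3 farthest on the between-group arrays the shares were 74.5% and 48.0%. Single ratios keep the dye effect, and diabetic 3 carried a different dye on each of these arrays. The part of the dye in the contrast was not tested. The level of diabetic 3 on the 3 diabetic arrays, fitted with the dye term, kept the sign in 318 of the 386 features (82.4%). Among the 4112 features it did so in 2620 (63.7%). Without the array of diabetic 2 with diabetic 3, the fit over the other 11 arrays called 31 features in place of 146, 27 of them with diabetic 3 farthest. Among the 95 named genes called on 12 arrays with diabetic 3 farthest, the sign of diabetic 3 was the same without the array in 95, its level was 0.716 to 1.26 times that with the array, and 22 were still called.

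**Figure D2:**
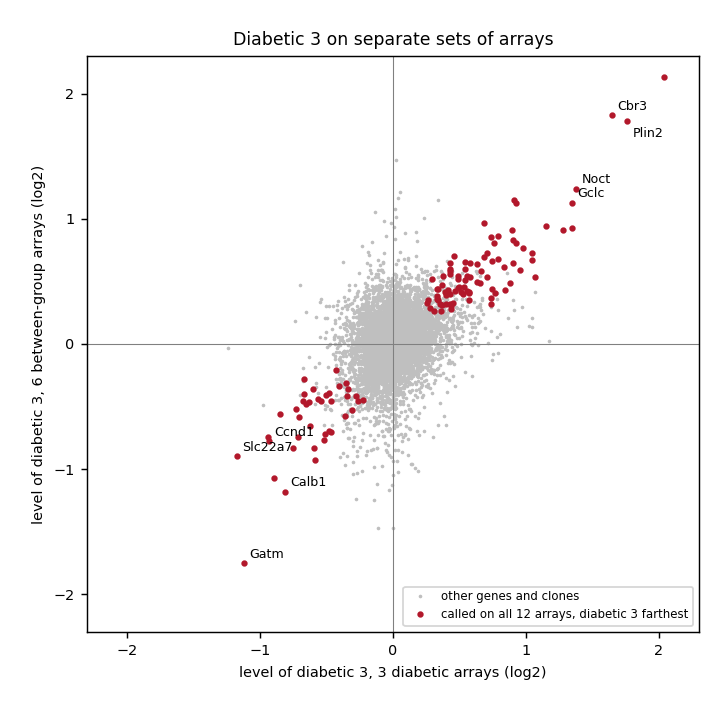
Level of diabetic 3 relative to the mean of the 3 diabetic animals (log2) on the 3 diabetic arrays (horizontal) and on the 6 between-group arrays (vertical), 1 point per gene or clone; red points are those called on all 12 arrays with diabetic 3 farthest. The cloud of all features is round, with a correlation of 0.37, and the red points lie along the diagonal on both sides, which their choice from both sets of arrays favours.

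The gene that passed the test on the 3 diabetic arrays encodes perilipin 2 (Plin2), the coat protein of lipid droplets in cells other than fat cells. Its ratio was -0.21 on the array of diabetic 1 with diabetic 2, -3.17 on that of diabetic 2 with diabetic 3 and 2.11 on that of diabetic 3 with diabetic 1. The first 2 animals thus differed little and both lay far below diabetic 3. The levels were -0.77, -0.99 and 1.76 for diabetic 1, 2 and 3 (SE 0.07), a 6.24-fold excess of diabetic 3 over the mean of the other two, with an adjusted p of 0.0417 by the moderated F test. On the between-group arrays the level of diabetic 3 was 1.78 and the excess 6.36-fold. On 12 arrays the adjusted p was 2.15e-06, and without the array of diabetic 2 with diabetic 3 it was 0.000115 at a level of 1.79 (limma). On the 3 diabetic arrays the call ended without background correction (level 1.00, adjusted p = 0.317), with ratios scaled to equal spread (0.47), with no filter on dim clones (0.0627), without the dye term and on these arrays fitted alone (both 1.00), and without the array of diabetic 2 with diabetic 3 (0.0886) or that of diabetic 3 with diabetic 1 (0.068).

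Because fewer than 10 genes were called, the 4 genes with the smallest p in each of the 6 patterns (each animal as high or low) were named, and apart from Plin2 none of them passed on the 3 diabetic arrays. Next to Plin2 among the genes high in diabetic 3 was carbonyl reductase 3 (Cbr3), which reduces reactive carbonyls and is a known target of the oxidant sensor NRF2. Its ratios were 0.31, -2.47 and 2.46 round the loop and its levels -0.71, -0.93 and 1.64 (SE 0.08, adjusted p = 0.0708, limma). Nocturnin (Noct), a rhythmic phosphatase that acts on NADPH and has been tied to lipid uptake, had ratios of -0.17, -2.38 and 1.75 and a level of 1.38 in diabetic 3. Phosphoserine aminotransferase (Psat1), an enzyme of serine synthesis, had ratios of -0.08, -1.22 and 1.90 and a level of 1.04, both with an adjusted p of 0.0981. In each of the 3 genes diabetic 1 and diabetic 2 were close to each other and both below diabetic 3.

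All 4 of these genes also had diabetic 3 as the high animal on the between-group arrays, with levels of 1.78, 1.83, 1.24 and 0.67 in the order above, and all 4 were called on all 12 arrays. Without the array of diabetic 2 with diabetic 3, Cbr3 (1.75) and Noct (1.31) kept an adjusted p of 0.0115 each, while Psat1 (0.84) had 0.0599. Without background correction the levels of Cbr3, Noct and Psat1 on the diabetic arrays were 0.67, 0.43 and 0.32, and that of Ccnd1, described below, was -0.58.

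The sequences before the start sites of 3 genes high in diabetic 3 are given to show where the cores of response elements match. The genes are Plin2, Psat1 and the metallothionein gene Mt2 described below. Each sequence is the 250 bases upstream of the start from RefSeq, build GRCm38.p6. It is read 5′ to 3′ on the gene's own strand, with motif matches in capitals. The cores AGGTCA (PPAR and other nuclear receptors) and TGACNNNGC (antioxidant response element, read by NRF2) were searched on both strands. So were TGCGCNC (a form of the metal response element) and TGATGNAA (amino acid response element), and no matches overlapped. Other forms of the metal response element were not searched, so its matches and shares are those of the letters TGCGCNC alone.
Plin2, chr4:86670060-86670309, minus strand: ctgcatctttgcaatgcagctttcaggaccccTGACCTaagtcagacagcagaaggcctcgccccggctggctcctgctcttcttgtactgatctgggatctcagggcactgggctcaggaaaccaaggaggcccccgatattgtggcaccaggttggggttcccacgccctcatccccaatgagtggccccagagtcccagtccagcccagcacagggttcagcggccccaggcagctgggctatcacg
Psat1, chr19:15925060-15925309, minus strand: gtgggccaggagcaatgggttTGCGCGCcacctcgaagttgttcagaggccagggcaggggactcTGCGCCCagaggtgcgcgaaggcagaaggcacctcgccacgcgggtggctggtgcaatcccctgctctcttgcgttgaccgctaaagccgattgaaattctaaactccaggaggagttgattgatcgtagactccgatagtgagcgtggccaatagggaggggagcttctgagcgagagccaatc
Mt2, chr8:94172368-94172617, plus strand: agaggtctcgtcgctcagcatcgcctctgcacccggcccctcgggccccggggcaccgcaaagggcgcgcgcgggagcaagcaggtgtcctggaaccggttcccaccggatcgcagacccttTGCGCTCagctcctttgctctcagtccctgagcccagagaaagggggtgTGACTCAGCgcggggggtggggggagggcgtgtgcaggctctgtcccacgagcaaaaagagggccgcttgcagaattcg
Plin2 holds 1 match to AGGTCA, on the opposite strand, beginning 218 bases before the start. The Psat1 sequence, the first of 2 listed for this gene, holds matches to TGCGCNC at 229 and 185 bases before the start. It holds none to TGATGNAA. Mt2 holds TGCGCNC at 128 and TGACNNNGC at 79 bases before it. The windows of Cbr3 (chr16:93682969-93683218) and Noct (chr3:51224197-51224446) hold none of the 4 cores.

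Over all 27025 genes with a promoter in that table, 15.8% hold AGGTCA, 11.5% TGACNNNGC, 14% TGCGCNC and 3.91% TGATGNAA. Of the 62 named genes called on 12 arrays as high in diabetic 3, 51 have a promoter there, and 7.84%, 11.8%, 27.5% and 0% hold the cores in that order. For the 27 of 33 genes called as low in diabetic 3 the shares were 25.9%, 11.1%, 33.3% and 0%. A match is a string of letters and does not show that a factor binds there.

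The 4 genes with the smallest p among those low in diabetic 3 were also low on the between-group arrays and were all called on 12 arrays. Cyclin D1 (Ccnd1), which drives entry into the cell cycle, had ratios of -0.05, 0.98 and -1.82 and levels of 0.59, 0.34 and -0.93 (SE 0.07), a 2.64-fold shortfall of diabetic 3. Calbindin-D28k (Calb1), the calcium buffer of the distal convoluted and connecting tubule, had ratios of 0.87, 1.32 and -1.12 and a level of -0.81 in diabetic 3. The adjusted p on the 3 diabetic arrays was 0.0981 for both. For Calb1 4 of 4 clones on the array had diabetic 3 below the mean, at -0.81 to -0.22. Laptm4a, a membrane protein of late endosomes and lysosomes, was at -0.71 and the class II antigen presentation gene H2-Eb1 at -0.94, each with an adjusted p of 0.189. H2 genes resemble each other, and a spotted clone may bind transcripts of relatives, so the identity of that signal is uncertain. Without the array of diabetic 2 with diabetic 3 the call of Ccnd1 held (-0.88, adjusted p = 0.00671, limma), and Calb1 (-1.02) had an adjusted p of 0.0652, H2-Eb1 (-0.84) 0.0529 and Laptm4a (-0.61) 0.0873.

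The patterns led by diabetic 1 or diabetic 2 held smaller levels. Their 16 named genes had adjusted p-values of 0.268 to 0.496 on the 3 diabetic arrays, and the animal and direction were the same on the between-group arrays in 4 of them. Pramel5 was detected on 0 of 12 arrays and is given no level; the other 15 had levels of 0.30 to 0.67 in size, of which Coq8a, Rps6kc1 and Lman1 were detected on 4 arrays and 9930012K11Rik on 3. The liver-type carboxylesterase Ces1d, which splits esters and triglycerides, had ratios of -0.82, 0.04 and 1.03 and was lowest in diabetic 1, at -0.62 (SE 0.09). The level from the between-group arrays was -0.64. Ces1d was called on 12 arrays with an adjusted p of 0.00377, and kept the call without the array of diabetic 2 with diabetic 3 at 0.0226; the Ces1 genes are a family of near copies, so the transcript behind the spot is uncertain. The kinase gene Tnk2 had ratios of -0.23, 1.57 and 0.56 and was highest in diabetic 2 on both sets of arrays, at 0.60 and 0.67, although on the latter diabetic 3 lay farther from the mean, at -0.75. Adenylate kinase 4 (Ak4), a mitochondrial enzyme and the brightest of the 24 genes, was highest in diabetic 2 on both sets, at 0.67 and 1.00. Ak4 was not called on 12 arrays (adjusted p = 0.0812, limma). With loess by print block its level in diabetic 2 on the diabetic arrays was -0.03. Growth arrest gene Gadd45g was lowest in diabetic 2, at -0.52 and -0.35. Tnk2 and Gadd45g were called on 12 arrays but not without the array of diabetic 2 with diabetic 3 (adjusted p = 0.179 and 0.338, limma).

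Others did not repeat. Coq8a, of ubiquinone synthesis, was at 0.45 in diabetic 1 on the diabetic arrays and at -0.06 on the between-group arrays, and Slc35b1, a transporter of nucleotides into the secretory pathway, at 0.30 and -0.28. Lman1, a cargo receptor of the secretory pathway, was at -0.33 and 0.13 in diabetic 2. Of the 24 genes, 5 (Coq8a, Cyb5a, Pramel5, Lman1 and Fcgbp) lie, as does Ier3, in the 3 print blocks at the upper left of the slide, where 9.32% of 547 features were under the unadjusted threshold against 7.64% of 9408 elsewhere and 0 of the 146 features called on 12 arrays were found. The part of those blocks in these genes was not tested.

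**Figure D3:**
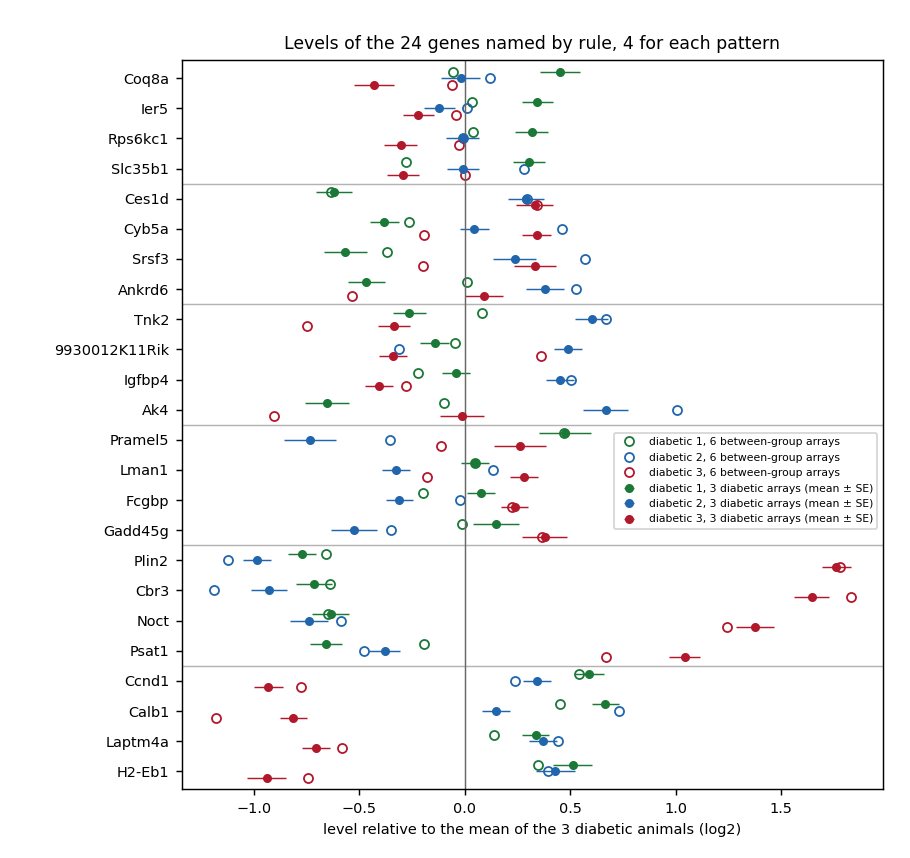
Levels relative to the mean of the 3 diabetic animals (log2) of the 24 genes named by rule, 4 for each pattern of 1 animal high or low, from the top diabetic 1 high and low, diabetic 2 high and low, diabetic 3 high and low; filled points with bars are the 3 diabetic arrays with SE and open circles the 6 between-group arrays. In the lowest 8 rows, from Plin2 to H2-Eb1, the red points of diabetic 3 stand apart from green and blue on both sets, while in the upper 16 filled and open points of an animal often part. Pramel5 is drawn although it was detected on 0 of 12 arrays.

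The genes that follow were singled out because they were called on all 12 arrays, that is after their values were seen, and their levels are given from the 3 diabetic arrays with the adjusted p from 12 arrays by limma's moderated F test. The 62 named genes called as high in diabetic 3 had a median level of 0.53 on 12 arrays, from 0.27 to 1.75, and the 33 called as low a median of -0.56, from -1.32 to -0.30. In bulk tissue a smaller number of cells of a type and less RNA per cell cannot be told apart. This holds for every cell type marker below. Of all 9955 features, 1.47% were called, 0.864% as high and 0.392% as low in diabetic 3, the shares to set beside the lists. Of the 5869 named genes, 108 were called, 62 as high and 33 as low in diabetic 3. Features at the unadjusted threshold on the 3 diabetic arrays were detected on all 3 in 70.6%, against 42.4% of all features. Lists of bright named genes are thus set beside a low share.

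Fatty acid genes were prominent among those high in diabetic 3. Of 8 measured genes on a list of PPAR-alpha and fasting targets, 5 were called and all 5 as high in diabetic 3, against 0.864% of all features called in that direction. The list's median level was -0.19, -0.30 and 0.47 in diabetic 1, 2 and 3, beside 0.00 for diabetic 3 over all features, and on the between-group arrays the median for diabetic 3 was 0.46. Acot2, a mitochondrial acyl-CoA thioesterase, had ratios of 0.04, -1.22 and 1.00 and a level of 0.74 in diabetic 3 (SE 0.08, adjusted p = 0.000829). Acot genes lie in a cluster of near copies, so a share of this signal may come from a relative. Pex11a, which divides peroxisomes, was at 0.76 (0.00785), Vnn1, a pantetheinase that is a strong PPAR-alpha target in mouse liver, at 0.93 (0.00704), Crot, the peroxisomal carnitine octanoyltransferase, at 0.54 (0.0373), and the peroxisomal transporter Abcd3 at 0.40 (0.0258), with adjusted p-values in parentheses. The thioredoxin inhibitor Txnip, at 0.25, and the peroxisomal genes Pex19, at 0.15, and Cat, at 0.16, were not called. Of the 5 calls only that of Acot2 held without the array of diabetic 2 with diabetic 3.

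Of 20 measured genes of fatty acid oxidation in mitochondria and peroxisomes 2 were called as high in diabetic 3, Eci1 and Hadhb. The median level of the list in diabetic 3 was 0.22 on the diabetic and 0.21 on the between-group arrays. There, 16 and 18 of 20 genes were above 0, beside 4969 and 5431 of all 9955 features. The median was 0.09 on the diabetic arrays without that of diabetic 2 with diabetic 3. Eci1, the isomerase for unsaturated fatty acids, had ratios of -0.25, -2.06 and 1.39 and a level of 1.15 (SE 0.08, adjusted p = 0.0012), a 3.31-fold excess of diabetic 3. Hadhb, the beta subunit of the trifunctional protein, was at 0.52 (0.0486). Hadh, which carries out the next-to-last step of the cycle, was called with diabetic 1 as the low animal, at -0.32. Acadl, the long-chain acyl-CoA dehydrogenase, was at 0.65 and carnitine palmitoyltransferase Cpt1a at 0.23 on the diabetic arrays, but at 0.19 and -0.12 on the between-group arrays, and neither was called. The call of Eci1 held without the array of diabetic 2 with diabetic 3, and those of Hadhb (0.155) and Hadh (0.0829) did not.

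Around these lay other genes of lipid handling. Dbi, the acyl-CoA binding protein, was at 0.79 in diabetic 3 and the arachidonate-activating Acsl4 at 0.90, and Nudt7, which breaks down coenzyme A in peroxisomes, at 0.70. Of 5 genes of the lipid droplet list Plin2 alone was called; the triglyceride lipase Pnpla2 was at 0.23, the fatty acid binding gene Fabp3 at 0.21, the perilipin Plin3 at -0.08 and the triglyceride-making Dgat1 at -0.02. Of 17 genes of lipid and sterol synthesis 1 was called, Acsl4, and the median of that list in diabetic 3 was 0.03. Retsat, which saturates retinol, was called with diabetic 1 low, at -0.60, -0.02 and 0.62 in diabetic 1, 2 and 3 and -0.67, 0.08 and 0.58 on the between-group arrays. The calls of Nudt7 (adjusted p = 0.0425, limma) and Retsat (0.0315) held without the array of diabetic 2 with diabetic 3, and those of Dbi (0.111) and Acsl4 (0.0936) did not.

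Of 26 measured genes on the list of oxidative stress and NRF2 targets, 4 were called, all as high in diabetic 3. Gclc, the catalytic subunit of the enzyme that limits glutathione synthesis, had ratios of 0.51, -1.65 and 2.38 and levels of -0.62, -0.72 and 1.34 (SE 0.15, adjusted p = 0.00377), a 4.04-fold excess. Haem oxygenase 1 (Hmox1) was at 0.76 (0.0468), the microsomal transferase Mgst3 at 0.43 (0.027) and the glutathione transferase Gstm5 at 0.29 (0.0301), a member of a family of near copies. The list's median in diabetic 3 was 0.09 on the diabetic arrays, 0.15 on the between-group arrays and -0.10 on the diabetic arrays without that of diabetic 2 with diabetic 3, and Gss, the second enzyme of glutathione synthesis, was at -0.34. Gclc alone of the 4 was still called without that array.

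The glucocorticoid list held 2 calls among 7 genes, both high in diabetic 3. Metallothionein 2 (Mt2), which binds zinc and copper, had ratios of 0.13, -1.44 and 1.33 and a level of 0.92 (SE 0.09, adjusted p = 0.00111). Another Mt2 clone, also detected on 12 arrays, had diabetic 3 at 0.37 on the diabetic arrays and 0.49 on all 12. Mt1, the neighbour and near copy of Mt2, was at 0.63 and not called (0.0551), and clones of the pair may bind either transcript. Lipocalin 2 (Lcn2), an iron-binding protein that also marks injured tubules, had ratios of 0.29, -1.70 and 1.02 and a level of 0.91 (SE 0.15, adjusted p = 0.0224). Its level on the diabetic arrays was 0.60 without the array of diabetic 2 with diabetic 3 and the call on 12 arrays was lost (0.23), while that of Mt2 held (0.0194). The salt-regulating kinase Sgk1 was at 0.59 on the diabetic arrays and at 0.00 on the between-group arrays, and the glucocorticoid targets Fkbp5 and Klf9 were at 0.11 and -0.02, with none of the 3 called. The median of the list in diabetic 3 was 0.59 on the former and 0.31 on the latter arrays.

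Of 13 measured genes of tubular injury Lcn2 alone was called, and not without the array of diabetic 2 with diabetic 3; 5 had an unadjusted p under 0.05 on the 3 diabetic arrays, where 7.73% of all features did, and the list's median in diabetic 3 was -0.07. Havcr1, the kidney injury molecule of the proximal tubule, was at 0.31, -0.03 and -0.28 in diabetic 1, 2 and 3 (SE 0.14, adjusted p = 0.822), and clusterin (Clu) at 0.12, 0.06 and -0.18 (SE 0.07, adjusted p = 0.735). Keratin Krt8 was at 0.09, 0.11 and -0.20 on the diabetic arrays and at -0.01, -0.35 and 0.36 on the between-group arrays. The immediate early gene Ier3 was at 0.00, 0.01 and -0.01 (SE 0.32). None of these 4 had an unadjusted p under 0.05 on the 3 diabetic arrays.

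Proximal tubule genes were low in diabetic 3. Of 8 measured markers 6 were called, 5 as low and 1 as high in that animal, against 0.392% and 0.864% of all features. The list's median level was 0.27, 0.34 and -0.63 in diabetic 1, 2 and 3 and -0.60 in diabetic 3 on the between-group arrays. The arginine:glycine amidinotransferase gene Gatm, which makes the precursor of creatine, had ratios of 0.88, 3.35 and -0.02 and levels of 0.30, 0.82 and -1.12 (SE 0.18, adjusted p = 0.009). Its array of diabetic 3 with diabetic 1 showed almost no difference, and its largest ratio came from the array of diabetic 2 with diabetic 3. The basolateral organic anion transporter Slc22a7 had ratios of -0.11, 2.32 and -1.21 and a level of -1.18 (SE 0.13, adjusted p = 0.00377), a 3.4-fold shortfall. Megalin (Lrp2), the receptor that takes up filtered protein, had ratios of 0.65, 1.85 and -0.83 and a level of -0.89 (SE 0.09, adjusted p = 0.00633). Myo-inositol oxygenase (Miox) was at -0.71 (0.0029) and the aminoacylase Acy3 at -0.54 (0.0135).

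The tubule list was not uniform. Gldc, a subunit of the glycine cleavage system, was called as high in diabetic 3, at 0.68 (0.0181), although its 3 clones ranged from -0.15 to 0.68; the amino acid transporters Slc7a8, at -0.23, and Slc6a13, at 0.03, were not called. Without the array of diabetic 2 with diabetic 3 the call of Miox held and those of the other 5 did not, with adjusted p-values of 0.065 for Gldc, 0.069 for Slc22a7, 0.084 for Acy3, 0.0852 for Lrp2 and 0.118 for Gatm, and levels of 0.77, -0.99, -0.56, -0.88 and -1.29. Fumarase (Fh1) of the citric acid cycle, at -0.75, and creatine kinase Ckb, which is used along the nephron, at -0.68, were also called as low, and both kept the call without that array.

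The calcium genes of the distal tubule parted in direction. Against Calb1 at -0.81, calbindin-D9k (S100g), which shuttles calcium across the same cells, had ratios of 0.07, -1.43 and 0.47 and levels of -0.13, -0.50 and 0.63 (SE 0.07, adjusted p = 0.000405). S100g was called without the array of diabetic 2 with diabetic 3 too, at 0.61. The other 4 of 6 measured genes of that segment, Wnk1, Atp2b1, Slc8a1 and Cldn8, were at -0.35 to -0.04 and not called.

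Several genes whose level in mouse kidney is known to depend on sex hormones were low in diabetic 3. Of 8 measured, 3 were called as low in that animal, Slc22a7, Miox and ornithine decarboxylase (Odc1), which makes polyamines and was at -0.66 (0.0137), and Ces1d with diabetic 1 low. The list's median in diabetic 3 was -0.31 on the diabetic and -0.11 on the between-group arrays. Hsd3b4, at -0.39, and Gusb, at -0.23, were not called. The lists overlap, since Slc22a7 and Miox are also tubule markers. Akr1c14, a steroid-converting enzyme with near copies, was at -0.41 (0.0164). Miox and Ces1d were still called without the array of diabetic 2 with diabetic 3, and Slc22a7, Odc1 (0.13) and Akr1c14 (0.158) were not.

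Amino acid enzymes split between the directions. Of 22 measured 3 were called as high and 2 as low in diabetic 3, and the list's median in that animal was -0.02. Alanine aminotransferase Gpt (0.54), glutamate dehydrogenase Glud1 (0.68) and Gldc were the high genes, and Gatm and Odc1 the low ones. None of the 5 was called without the array of diabetic 2 with diabetic 3, where Gpt had an adjusted p of 0.0599, Glud1 of 0.302 and Odc1 of 0.13 (limma). Arg2, the mitochondrial arginase, was not called but had levels of 0.19, -0.52 and 0.34 on the diabetic arrays and 1.15 in diabetic 3 on the between-group arrays.

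Of 13 measured genes of interferon response and antigen presentation 2 were called, H2-Eb1 and the interferon-induced GTPase Igtp (-0.36, 0.0331), both low; the median in diabetic 3 was -0.26 on the diabetic and -0.28 on the between-group arrays, but -0.09 on the diabetic arrays without that of diabetic 2 with diabetic 3. Of 5 leukocyte markers none was called, 2 were detected on all 3 diabetic arrays, and their levels in diabetic 3 ran from -0.27 to 0.12. Among 23 measured genes of the extracellular matrix 21 were below 0 in diabetic 3 on the diabetic arrays, beside 4986 of all 9955 features. Their median was -0.14, and 1 was called, the proteoglycan Bgn, at -0.28 (0.0259). Collagen Col3a1 had levels of 0.38, 0.30 and -0.68 and an adjusted p of 0.0514. On the between-group arrays 7 of the 23 matrix genes were above 0, beside 5431 of all 9955 features. None of H2-Eb1, Igtp (0.223) and Bgn (0.154) was called without the array of diabetic 2 with diabetic 3.

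Of 30 cell cycle genes 3 were called, all low in diabetic 3: Ccnd1, the microtubule regulator Stmn1 (-0.67, 0.0485) and the replication helicase subunit Mcm6 (-0.50, 0.0109). The list was mixed, as the kinase subunit Cks2, at 0.55, and Cdk4, at 0.39, lay above the mean without being called, and its median in diabetic 3 was -0.04. The small GTPase Rhoa, at -0.73, and moesin (Msn), which ties membranes to actin, at -0.51, were also called as low. The 3 Rhoa clones differed, at -0.73, -0.0005 and -0.04 in diabetic 3, and the clone at -0.0005 was detected on 12 arrays. Without the array of diabetic 2 with diabetic 3 Ccnd1 alone was still called; the adjusted p was 0.233 for Stmn1, 0.104 for Mcm6, 0.154 for Rhoa and 0.23 for Msn (limma), and the median of the cell cycle list was 0.02.

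Of 10 measured genes of the circadian clock and its outputs 2 were called, both low in diabetic 3: the transcription factor Tef, with ratios of -0.30, 0.99 and -0.46 and a level of -0.48 (0.0175), and the deubiquitinase Usp2, at -0.63 (0.0487). The clock repressor Nr1d2 was at -0.32 and the core activators Arntl and Clock at 0.11 and 0.01, and none was called. Neither Tef (0.243) nor Usp2 (0.302) was called without the array of diabetic 2 with diabetic 3, and the list's median in diabetic 3 on the diabetic arrays was 0.02 in place of -0.07. The hour at which each animal was killed is not given in the labels used here.

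Stress genes gave single calls. Of 18 genes of the endoplasmic reticulum stress response 2 were called as high in diabetic 3, the secreted factor Manf (0.57, 0.0366) and the transcription factor Xbp1 (0.33, 0.0261), with a list median of 0.04; the chaperone Hspa5 was at 0.49 and not called. Of 13 hypoxia genes Bnip3, which marks mitochondria for removal, was called at 0.90 (0.00103), with ratios of 0.49, -0.68 and 2.02, while the other 12 had levels of -0.39 to 0.39. Wsb1, a ubiquitin ligase adaptor, was at 0.89 and Tsc22d1, a leucine zipper protein, at 0.79, with 6 of 6 clones of the latter between 0.36 and 0.89; Wsb1, Tsc22d1 and Bnip3 kept their call without the array of diabetic 2 with diabetic 3, and Manf (0.279) and Xbp1 (0.153) did not.

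None of 71 cytosolic ribosomal genes and none of 61 genes of oxidative phosphorylation was called by limma on 12 arrays, with 8 and 5 of them at an unadjusted p under 0.05, where 13.1% of all features were, and their median levels in diabetic 3 were 0.03 and -0.05 on the diabetic arrays. The ribosomal median was 0.24 on the between-group arrays, with 68 of 71 genes above 0, beside 5431 of all 9955 features. It was -0.16 on the diabetic arrays without that of diabetic 2 with diabetic 3. The median of oxidative phosphorylation was 0.08 and -0.18 in these settings, so the sign of both depended on the arrays. Among 47 translation factors 3 were called as high in diabetic 3, Eif6, Eif3m and Eif3k, at 0.49, 0.58 and 0.36, and Eif6 alone was still called without the array of diabetic 2 with diabetic 3 (0.0392). The insulin-like growth factor axis held 0 calls among 14 genes, with 7 at an unadjusted p under 0.05 on 12 arrays, beside 13.1% of all features: Igf1r was at 0.07, 0.28 and -0.35 (SE 0.11) and the binding protein Igfbp4 at -0.04, 0.45 and -0.41 (SE 0.07) in diabetic 1, 2 and 3. The level of Igf1r in diabetic 3 was -0.09 without the array of diabetic 2 with diabetic 3, -0.52 on 12 arrays and -0.89 on the between-group arrays.

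Across the lists, diabetic 3 had the median farthest from 0 in 23 of 44 lists with at least 5 measured genes on the diabetic arrays, and in 13 of them on the between-group arrays too. Its median had the same sign on both sets in 36 of 44. Without background correction the medians of diabetic 3 were nearer 0, at 0.21 for the PPAR-alpha, 0.07 for the fatty acid oxidation, 0.23 for the glucocorticoid and -0.36 for the proximal tubule list. The lists share genes and the levels of the animals sum to 0, so the counts are descriptions.

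**Figure D4:**
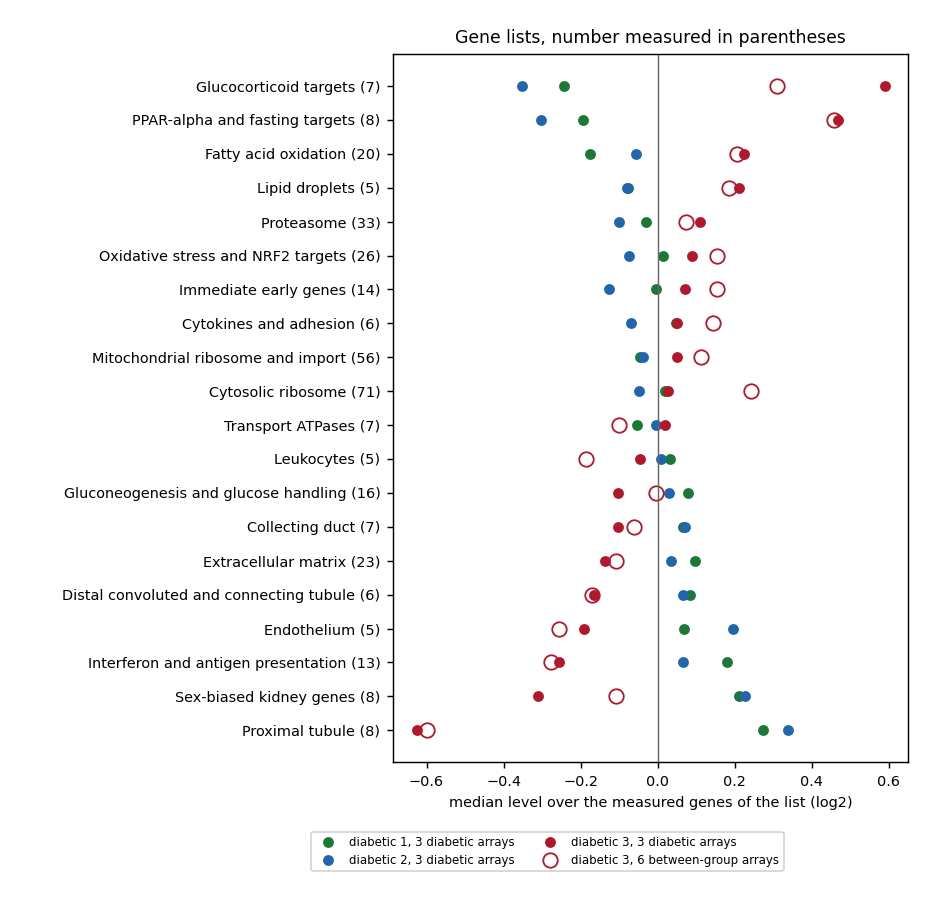
Median level (log2) over the measured genes of 20 lists, those with at least 5 genes and a median of diabetic 3 of at least 0.1 in size on either set; filled points are the 3 animals on the 3 diabetic arrays and open circles diabetic 3 on the 6 between-group arrays. Diabetic 3 lies right of the others for fatty acid and glucocorticoid genes and left of them for proximal tubule, interferon and matrix genes, and open and filled red points part most for the cytosolic ribosome, glucocorticoid and sex-biased lists.

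Set among all 6 animals on 12 arrays, diabetic 3 stood outside the range of the other 5 in 95 of the 95 named genes called with it farthest. The same fit chose the genes and gave these levels, so the choice favours this count. For Plin2 the levels relative to the mean of the 6 were -0.22, -0.53 and 2.25 in diabetic 1, 2 and 3 and -0.62, -0.44 and -0.43 in menopausal/diabetic 1, 2 and 3. For Lrp2 they were 0.18, 0.24 and -1.15 and 0.13, 0.25 and 0.33. In both genes the other 2 diabetic animals lay within or close to the values of the menopausal/diabetic animals. Of the 27 of these 95 genes measured by more than 1 clone, diabetic 3 was on the same side in every clone in 25 by the levels from 12 arrays and in 22 by those from the 3 diabetic arrays.

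**Figure D5:**
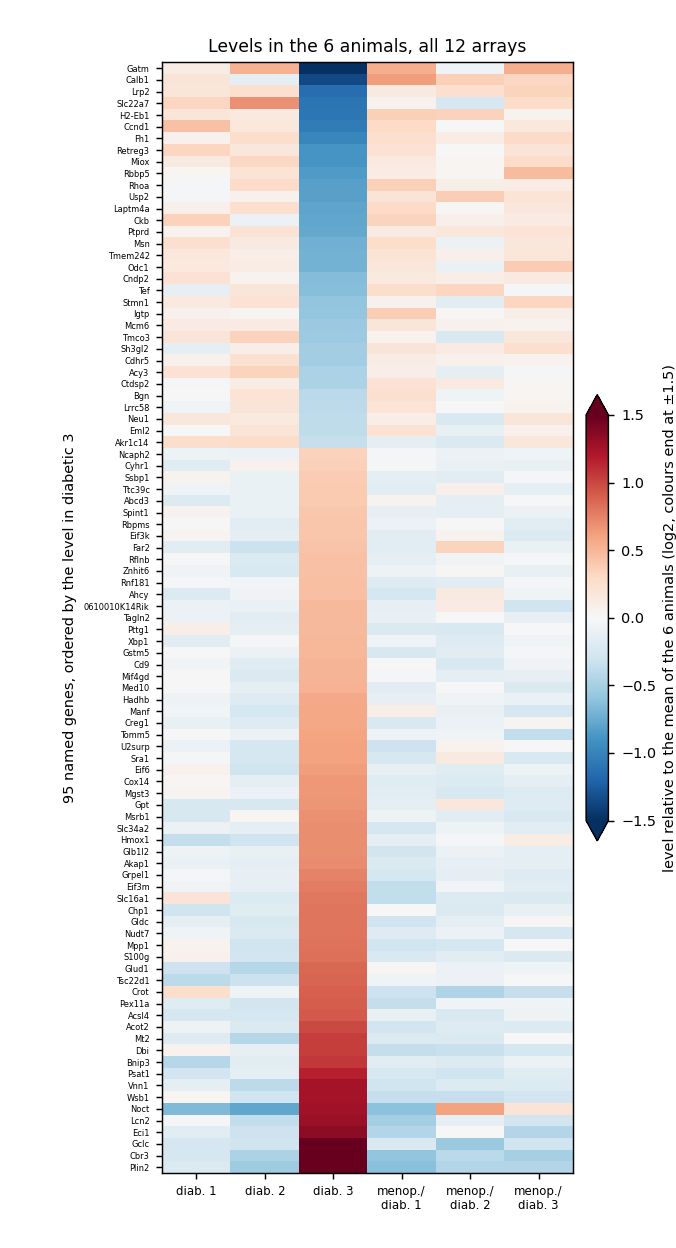
Levels in the 6 animals relative to their mean (log2, colour, red above and blue below 0, colours end at 1.5 in size) of the 95 named genes called on 12 arrays with diabetic 3 farthest, ordered by its level. The column of diabetic 3 is uniformly blue in the upper 33 rows and red in the lower 62, while the other 5 columns are pale in most rows, with exceptions such as Noct in menopausal/diabetic 2.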

How the data were processed

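Kidney cortex RNA of 6 mice was amplified and hybridised in pairs to 12 two-colour spotted cDNA arrays, per the labels' protocols. The deposited scanner files give spot and background intensity per channel, not normalized, with a detection status per spot, per the file headers. A deposited table of log2 ratios was not used, because 0 of its 12 columns correlated best with the array it is named for. Spots were tied to platform probe numbers by print set and row counted from the slide bottom: the 328 ribosomal spots then lay at a mean brightness percentile of 87.2, against 49.5 in file order. Of 31200 spots, 18382 carry 1 gene symbol, 508 several and 12310 none, and only the first kind was named.

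With limma 3.58.1 in R 4.3.3, intensities were background-corrected (normexp, offset 50), loess-normalized within each array and averaged over the 2 spots of a clone. Of 15600 clones the dimmest 25% were left out, and the brightest clone stood for a gene. The model held separate animal levels for the diabetic, menopausal/diabetic and between-group loops plus a dye term, with 2 residual degrees of freedom. The 3 diabetic levels were compared by a moderated F test, with Benjamini-Hochberg adjustment over 9955 features and a threshold of 0.05. On simulated data with 50 genes per size, 2 log2 differences of 0.5, 47 of 1 and 50 of 2 were recovered on the diabetic arrays. In the same simulated data 14 calls were false. In the measured data Cbr3, with diabetic 3 at 2.47 above the mean of the other diabetic animals, had an adjusted p of 0.0708 (limma). The simulated counts therefore do not carry over to the measured arrays.

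Fewer than 10 genes were called, so the 4 smallest p-values per pattern were named, with Plin2, Lcn2, Havcr1, Tef, Igf1r, Acot2, Ier3, Clu and Krt8 fixed by name and up to 4 members per gene list. Genes called on 12 arrays were named after their values were seen. The members and the gene lists were chosen with earlier results of these data known. Alternatives changed the background correction, normalization, dim-clone filter, clone rule, dye term, arrays used and replicates. Arrays give no counts, so their number limits the precision.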

Additional observations from a re-analysis of the deposited data

How the results depend on the processing

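The count of features passing the F test and those of the pairs diabetic 2 with 3 and diabetic 3 with 1 were 1, 3 and 1 as reported. They were 0, 0 and 0 without background correction, with scaled arrays, with no dye term, on the 3 diabetic arrays alone and on the 6 between-group arrays alone, 10, 39 and 14 with loess by print block, 0, 1 and 0 with no filter on dim clones, and 146, 235 and 113 on all 12 arrays. With the dimmer 50% of clones left out the first and the last were 2 and 2, and with clones averaged the last was 3. Leaving out 1 array at a time gave 1 to 37, 0 to 5 and 0 to 91, with 0 to 0 for diabetic 1 with 2, 20 to 22 named genes of the same pattern, 17 to 31 lists with diabetic 3 farthest, and 31 to 186 calls on 12 arrays. The 146 calls on 12 arrays became 273 with loess by print block, 44 without background correction and 68 with scaled arrays, all chosen after seeing the data. With the between-group arrays 12 of the 24 named genes had the same pattern, and the mean SD of the log2 ratios on the diabetic arrays was 0.193 without background correction, against 0.312. Levels changed sign for Ier3 in diabetic 2 (-0.0297 without background correction, -0.0169 to 0.0458 with 1 array left out), Ak4 in diabetic 2 (-0.0294 with loess by print block), Havcr1 in diabetic 1 (-0.0613 to 0.674 with 1 array left out) and Krt8 in diabetic 3 (0.00297 on 12 arrays, 0.36 on the between-group arrays). On the between-group arrays they also did for Coq8a (-0.0558), Slc35b1 (-0.28) and Ankrd6 (0.0086) in diabetic 1 and 9930012K11Rik (-0.31) and Lman1 (0.13) in diabetic 2. The cause was not tested. The pairing of animals on each array was part of every fit. No paired analysis was possible across the groups of arrays, because the replicate numbers were given in accession order.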
